A study of Mus musculus with 16 samples.

Results

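The solute carriers described here are all genes whose symbol starts with Slc and a number and that were named in either of the series' 2 annotated tables, other than Slc51b and Slc9a3, which the choice left out. This gave 51 genes of 3625 distinct named symbols. Transcript clusters, which pool the probes of the exons of 1 transcript, carried 32 of them, and a gene-level table of 1793 genes carried 21, with Slc13a2 and Slc52a2 in both. By numbered family, 12 members fell in the class of organic ions and bile acids and 9 in the mitochondrial carrier family. The class of nucleosides and nucleotide sugars had 7, cations and metals 6, sugars 6 and amino acids or peptides 5. Inorganic anions had 3 and vitamins and lipids 3. Classes follow the family, so not every member is known to carry the solutes that its class names. Many solute carriers known from colon textbooks had no named value and were not analysed here: of 24 on such a list, 4 were members, namely Slc2a1, Slc10a2, Slc16a1 and Slc26a2.

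Solute carriers are the membrane proteins that move ions, sugars, amino acids, organic acids, nucleotides, metals and vitamins across cell membranes by facilitated or coupled transport, without splitting ATP. In the colon, carriers of the apical membrane take up solutes left in the lumen, including organic acids that bacteria make or leave over, carriers of the basolateral membrane pass them to the blood, and carriers of mitochondria, lysosomes and the Golgi serve metabolism inside the cell. The family names group carriers by sequence, so members of 1 numbered family often, but not always, carry related solutes.

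RNA came from the colon of outbred mice of the Swiss Webster stock, all of them germ-free at the outset, with 4 arrays in each of 4 groups. The GF group stayed germ-free, the UCC2003 group carried only Bifidobacterium UCC2003, the TadA mutant group carried only Bifidobacterium with a mutated TadA gene, and the CONV group was germ-free mice that had been re-conventionalised, that is, given a normal microbiota. The TadA gene is part of the locus from which the bacterium builds its tight adherence (Tad) pilus. The question behind the series is whether a protein tied to that pilus makes the epithelium of the colon grow. The labels give no age, sex, time after colonisation, litter or cage, so p-values measure only the spread between these samples, and the number of arrays limits their precision.

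Values are log2 intensities, in which a difference of 1 is a doubling, and levels of different genes cannot be ranked against each other because each probe set has its own brightness. A gene is called changed here when limma's two-sided p, adjusted by Benjamini-Hochberg, is under 0.05. The adjustment ran over all 23332 clusters. For the gene-level table it ran over an assumed 35860 tests, which is 1793 divided by 0.05 and not a count of genes tested. Adjusted p-values of that table rest on this assumption unless stated otherwise. It was made because the authors had kept the 1793 genes for a p under 0.05 when testing GF, UCC2003 and TadA mutant arrays. Differences between those 3 groups in that table are therefore no independent evidence, and the GF arrays also enter its CONV comparison. Both limits hold for gene-level columns given below as not overlapping, such as those of Slc7a9, Slc4a2, Slc25a44 and Slc25a24. All 3 comparisons with GF use the same 4 GF arrays. In bulk tissue, fewer cells of a type and less RNA per cell cannot be told apart.

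Array medians lay between 5.91 and 6.03 and pairwise array correlations between 0.938 and 0.979. The pancreatic transcripts Cpa1 and Cel were abundant (mean 10.4 to 13.1 log2 units) in 8 arrays, namely GF replicates 2, 3 and 4, UCC2003 replicates 1 and 3, TadA mutant replicate 2 and CONV replicates 2 and 4, and lay at 4.51 to 6.99 in the other 8. Of 21 listed pancreatic acinar markers 6 were measured, and their mean ran from 7.49 to 12.9 over the GF arrays and from 7.51 to 12.5 over the CONV arrays. Sycn and Zg16, which are among the 6, were high in all arrays (lowest CONV values 12.1 and 12.4). The mean is therefore raised also where Cpa1 and Cel were low. Of 12 smooth muscle markers 3 had a cluster (Cnn1, Lmod1 and Tpm2) and 5 were in the gene-level table. The mean of the 3 was 8.17 to 8.49 in CONV, 8.36 to 8.86 in GF, 8.64 to 9.16 in TadA mutant and 8.95 to 9.14 in UCC2003, so the CONV arrays all lay below the arrays of both Bifidobacterium groups. Of 11 colonocyte markers 2 had a cluster (Hnf4a and Krt20, mean 10.4 to 10.8 over all groups), of 11 small intestine markers 2 (Apoa4 and Lyz1, mean 6.08 to 7.06), of 6 myeloid markers 1 (Cd14) and of 7 B cell markers 0. The gene-level table held 1 further myeloid marker (Csf1r), 1 further colonocyte marker (Guca2a) and 3 B cell markers.

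CONV replicate 4 stood apart in 1 respect. The CONV means in the authors' deposited table matched the mean of CONV replicates 1 to 3, with a median absolute difference of 0.0255 log2 units over 16135 features, and not that of all 4 CONV arrays, where it was 0.0744. In the other groups, the mean of all 4 arrays matched within a median of 0.0240 to 0.0253. Results for CONV are therefore given with and, where that array changes them, without CONV replicate 4. Why it was left out of those means is not given in the sources used here.

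Of all the solute carriers, Slc13a2 changed most. This gene, at chromosome 11 B5, encodes the sodium-coupled dicarboxylate cotransporter NaDC1, which takes up citrate, succinate and other intermediates of the citric acid cycle at the apical membrane of epithelia. Its cluster stood at 9.75, 10.04, 9.99 and 9.67 log2 units in CONV replicates 1 to 4 and at 8.0, 8.30, 8.41 and 8.19 in GF. In the UCC2003 group it read 8.51, 8.30, 8.46 and 8.63, and in the TadA mutant group 7.98, 8.26, 8.14 and 8.16. Every CONV array lay above every other array, and the lowest CONV value exceeded the highest value of the other groups by more than the whole range within any group.

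The group means of Slc13a2 were 9.86 ± 0.18 in CONV, 8.22 ± 0.17 in GF, 8.48 ± 0.14 in UCC2003 and 8.14 ± 0.12 in TadA mutant (SD, n = 4 each). It rose in CONV by 1.64 ± 0.11 log2 units (SE) over GF, a 3.12-fold difference (limma adjusted p = 2.66e-06). Against UCC2003 the rise was 1.39 ± 0.11 (2.61-fold, adjusted p = 1.68e-05), and against TadA mutant 1.72 ± 0.11 (3.31-fold, adjusted p = 2.53e-06). In limma's F test over the 4 groups Slc13a2 ranked 4 of 23332 clusters, and it was the 1 solute carrier of 32 with an adjusted p under 0.05 there (adjusted p = 3.5e-06), where 1.63% of all clusters were called. The authors' deposited table gives Slc13a2 3.29-fold higher in CONV than in GF, 2.74-fold higher than in UCC2003 and 3.45-fold higher than in TadA mutant. Its adjusted p-values there were 0.000763, 0.00131 and 0.000785, and no other solute carrier of that table had an adjusted p under 0.05 in any pair of groups.

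**Figure D1:**
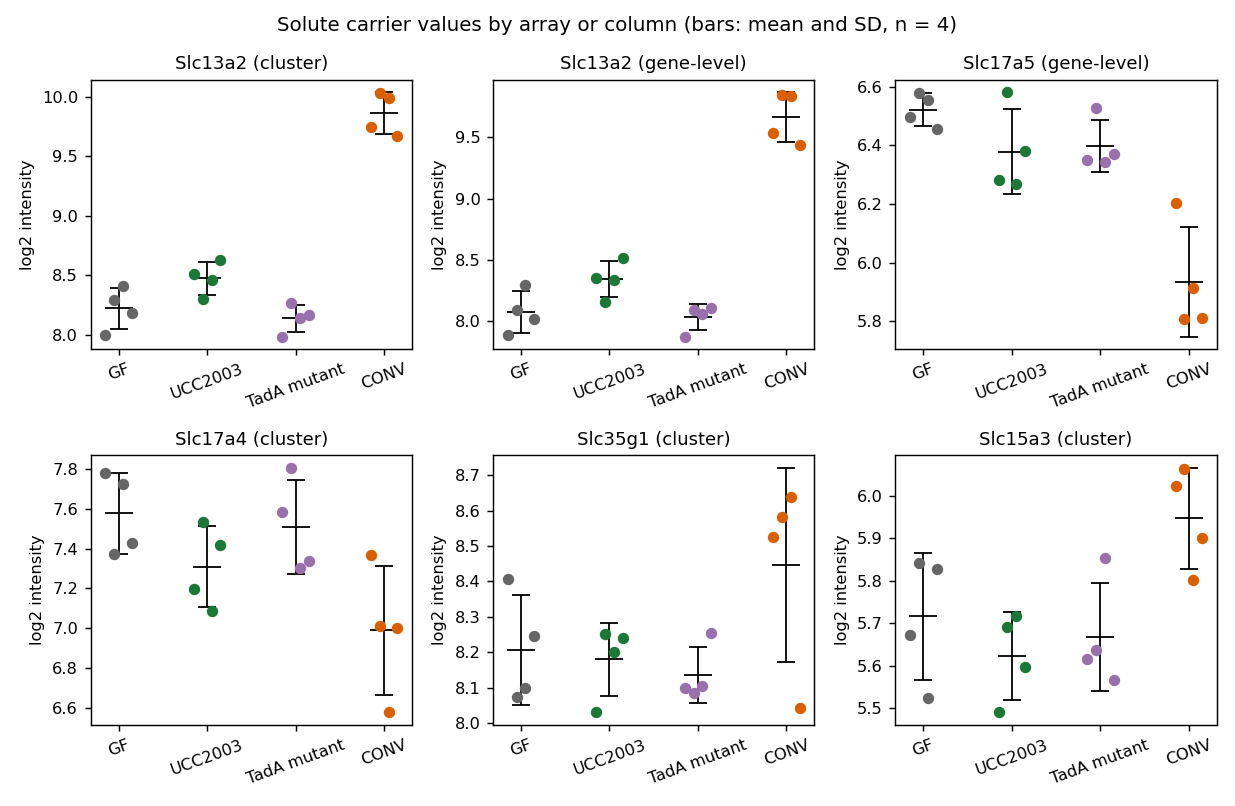
Log2 intensity (vertical axes, which start at different values) of Slc13a2, Slc17a5, Slc17a4, Slc35g1 and Slc15a3 in each array or column of the GF, UCC2003, TadA mutant and CONV groups; bars give the mean and SD of 4. Slc13a2 lies above 9.4 in every CONV array and below 8.7 in every other one, in both tables, while 1 CONV array of Slc35g1 lies apart from the other 3 at 8.04.

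The gene-level table, whose columns carry the group but not the replicate, gave Slc13a2 the same order of groups. Its columns read 9.54, 9.84, 9.84 and 9.44 in CONV, 7.89, 8.09, 8.30 and 8.02 in GF, 8.36, 8.16, 8.34 and 8.52 in UCC2003 and 7.87, 8.09, 8.06 and 8.11 in TadA mutant. The rise over GF was 1.59 ± 0.12 log2 units (3.01-fold, adjusted p = 5e-06), and both tables come from the same arrays, so the second is no further replicate.

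Slc13a2 was as high in CONV among arrays without abundant pancreatic transcripts as among arrays with them. The difference from GF was 1.56 between the 2 CONV and 3 GF arrays with these transcripts and 1.87 between the 2 CONV arrays and 1 GF array without them. The corresponding differences from UCC2003 were 1.37 and 1.40, and those from TadA mutant 1.59 and 1.77. With a covariate for the smooth muscle mean, the difference from UCC2003 was 1.05 ± 0.19 and its call was lost (adjusted p = 0.0759), while those from GF and TadA mutant kept theirs. Without CONV replicate 4 the rise over GF was 1.70 ± 0.12 (adjusted p = 6.56e-06). The myeloid marker Cd14 was also high in CONV (10.6 to 11 log2 units) beside GF (9.05 to 9.23). Of the colonocyte markers, Krt20, a keratin of mature surface epithelium, lay at 11.3 to 11.7 in CONV and 11.1 to 11.2 in GF. It was called higher in CONV than in TadA mutant (0.49 ± 0.09, adjusted p = 0.0168) and not against GF (0.38 ± 0.09, adjusted p = 0.0565) or UCC2003 (0.33 ± 0.09, adjusted p = 0.0724), while Hnf4a differed by 0.0029 ± 0.10 from GF (adjusted p = 0.995). The part of Cd14 and Krt20 in the Slc13a2 values was not tested.

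Between the monocolonised groups Slc13a2 differed little beside its rise in CONV. The UCC2003 arrays all lay above the TadA mutant arrays, by 0.34 ± 0.11 log2 units (1.26-fold, unadjusted p = 0.0091), which did not pass adjustment (adjusted p = 1). Against GF, UCC2003 was 0.25 ± 0.11 higher (unadjusted p = 0.04, adjusted p = 0.618) with overlapping arrays, and TadA mutant differed by -0.08 ± 0.11 (adjusted p = 0.897).

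Slc17a5, on chromosome 9, encodes sialin, which exports sialic acid from lysosomes, and it was the other solute carrier called in any comparison. Its gene-level columns read 6.2, 5.81, 5.91 and 5.81 in CONV and 6.50, 6.58, 6.55 and 6.46 in GF. In UCC2003 they read 6.28, 6.58, 6.27 and 6.38, and in TadA mutant 6.35, 6.53, 6.34 and 6.37. All CONV values lay below all others. Slc17a5 fell by 0.59 ± 0.10 log2 units in CONV against GF, or 1.5-fold (limma adjusted p = 0.0285), from 6.52 ± 0.06 to 5.93 ± 0.19 (SD, n = 4 each). This call was lost in 9 of 21 alternatives. The difference ran from -0.68 to -0.55 when 1 column was left out, and the limma adjusted p was 0.376 when only the CONV and GF columns were fitted. Its differences from GF were -0.14 ± 0.10 in UCC2003 and -0.12 ± 0.10 in TadA mutant (adjusted p = 1 for both). In the same table, the mean of the 3 measured of 7 B cell markers was 6.15 to 7.22 in CONV and 5.20 to 5.78 in GF, and that of 5 of 12 smooth muscle markers was 7.90 to 8.15 in CONV and 8.08 to 8.55 in GF. The myeloid marker Csf1r read 6.70 to 7.05 in CONV and 5.85 to 6.25 in GF, without overlap. The part of these markers in the Slc17a5 values was not tested.

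Slc17a4, at chromosome 13 A3.1, belongs to the same family and encodes a phosphate and organic anion transporter of the intestinal epithelium. Its cluster read 7.37, 7.01, 6.58 and 7.0 in CONV replicates 1 to 4, against 7.78, 7.37, 7.72 and 7.43 in GF, 7.19, 7.54, 7.09 and 7.42 in UCC2003 and 7.58, 7.81, 7.30 and 7.34 in TadA mutant. The CONV values lay just below all GF values and overlapped those of the other groups. The difference between CONV and GF was -0.59 ± 0.17 log2 units (1.5-fold, unadjusted p = 0.00357) and was not called (adjusted p = 0.11). It was -0.50 among arrays with abundant pancreatic transcripts and -0.81 among those without. The differences from TadA mutant (-0.52 ± 0.17) and UCC2003 (-0.32 ± 0.17) were not called either (adjusted p = 0.163 and 0.319).

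Slc10a2 and Slc16a1 are the textbook carriers of this class: the first takes up bile acids with sodium, chiefly in the ileum, and the second moves lactate and short-chain fatty acids such as butyrate with protons. Slc10a2 read 7.08 in UCC2003 replicate 2 and between 4.54 and 5.88 in the other 15 arrays. Its difference between UCC2003 and GF was 0.60 ± 0.38 (adjusted p = 0.681), or -0.13 among arrays with abundant pancreatic transcripts and 1.63 among those without, so the sign was not the same in both. Slc16a1 had values of 8.77, 8.32, 8.58 and 7.92 in CONV and 8.35, 8.20, 8.56 and 8.37 in GF, and group differences of -0.01 to 0.04 log2 units (SE 0.19), with adjusted p-values of 0.961 or more. Without CONV replicate 4, CONV differed in Slc16a1 by 0.19 ± 0.18 from GF, 0.18 ± 0.18 from TadA mutant and 0.15 ± 0.18 from UCC2003. None of these was called (limma adjusted p = 0.755, 0.680 and 0.683). The sign of Slc16a1 also differed with the pancreatic transcripts: CONV against GF was -0.25 among arrays with them and 0.33 among those without, and UCC2003 against GF -0.19 and 0.28. Its groups overlapped throughout. With an SE of that size, the missing calls do not show that Slc16a1 was unchanged.

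The vesicular glutamate transporter gene Slc17a8 had gene-level columns of 4.78, 4.59, 4.73 and 4.72 in UCC2003, 4.85, 4.61, 4.54 and 4.65 in TadA mutant, 4.89, 5.24, 5.09 and 4.82 in GF and 4.95, 5.03, 4.95 and 4.87 in CONV. All UCC2003 values lay below all GF values, whereas 1 TadA mutant value lay among them. The differences from GF were -0.31 ± 0.10 in UCC2003 and -0.35 ± 0.10 in TadA mutant, and neither was called (adjusted p = 0.706 and 0.863). The class's remaining 6 members (Slc10a3, Slc10a4, Slc16a9, Slc16a13, Slc17a9 and Slc22a13) were called in no comparison. Across its 9 clusters, 5 were higher and 4 lower in CONV than in GF, with a median difference of 0.013 log2 units.

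Among carriers of amino acids and peptides, Slc15a3, a lysosomal transporter of peptides and histidine found in immune cells, read 6.02, 6.06, 5.80 and 5.90 in CONV and 5.49, 5.69, 5.72 and 5.60 in UCC2003. In TadA mutant it read 5.62, 5.64, 5.85 and 5.57, and in GF 5.67, 5.84, 5.52 and 5.83. The CONV and UCC2003 arrays did not overlap, and their difference of 0.32 ± 0.10 log2 units (1.25-fold, unadjusted p = 0.00478) was not called (adjusted p = 0.0862). The myeloid marker Cd14 was called higher in CONV than in each other group, by 1.67 log2 units against GF and 1.31 against UCC2003. Its part in the Slc15a3 values was not tested.

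Slc7a9, the light chain of the transporter that takes up cystine and basic amino acids at the apical membrane, read 5.94, 5.79, 5.90 and 5.70 in the GF columns, 5.28, 5.64, 5.17 and 5.43 in UCC2003, 5.76, 6.08, 5.47 and 5.37 in TadA mutant and 5.16, 5.46, 5.16 and 5.53 in CONV. GF lay above both UCC2003 and CONV without overlap, which is no independent evidence, since the authors' selection of these genes used the GF and UCC2003 arrays. The differences from GF were -0.45 ± 0.15 in UCC2003 (adjusted p = 0.706) and -0.50 ± 0.15 in CONV (adjusted p = 0.756), neither called. Slc1a1, a sodium-coupled glutamate transporter, had its highest values in TadA mutant (7.18, 7.18, 7.27 and 7.06), above all values of GF (6.94, 6.57, 6.97 and 6.85) and UCC2003 (6.78, 7.01, 6.80 and 7.03). TadA mutant differed from GF by 0.34 ± 0.12 and UCC2003 from TadA mutant by -0.27 ± 0.12 (adjusted p = 1 for both). The proline transporter gene Slc6a7 read 5.88, 6.44, 6.03 and 6.29 in UCC2003 and 6.40, 6.38, 6.66 and 6.63 in TadA mutant. Those groups overlapped at 1 UCC2003 value, and their difference was -0.36 ± 0.14 (unadjusted p = 0.0197, adjusted p = 1). The fifth carrier of the class, Slc38a6, a sodium-coupled amino acid transporter relative, was not called in any comparison.

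Among sugar carriers, Slc2a8, a glucose transporter of intracellular membranes, read 5.13, 5.01, 4.06 and 5.10 in UCC2003 and 5.75, 5.89, 5.49 and 5.29 in GF. In TadA mutant it read 5.27, 5.43, 5.40 and 5.30, and in CONV 5.49, 5.31, 4.99 and 4.78. All UCC2003 values lay below all GF and TadA mutant values. The difference between UCC2003 and GF was -0.78 ± 0.21 log2 units (1.72-fold, adjusted p = 0.47), and -0.52 without UCC2003 column 3, the low value of 4.06. Slc2a1, the glucose transporter of most cell membranes, had values of 8.81, 8.96, 8.90 and 9.27 in UCC2003 and 8.98, 9.05, 9.04 and 9.01 in GF. In TadA mutant it read 8.71, 8.91, 8.82 and 8.77, below all GF values, and in CONV 9.07, 9.44, 9.01 and 8.26. None of its differences from GF, -0.22 to -0.04 (SE 0.18), was called. Slc2a10 and Slc5a3, which have clusters, and Slc5a11 and Slc45a3, in the gene-level table, were called in no comparison.

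The 3 vitamin and lipid carriers were all in the gene-level table. Slc46a3, a lysosomal relative of the folate transporter, read 6.86, 6.73, 6.51 and 6.54 in UCC2003 and 6.27, 6.28, 6.10 and 6.03 in TadA mutant, without overlap. Its GF columns read 6.52, 5.93, 6.23 and 6.23, and its CONV columns 6.27, 6.59, 6.29 and 6.59. UCC2003 exceeded TadA mutant by 0.49 ± 0.13 log2 units (1.40-fold, unadjusted p = 0.00179) and GF by 0.43 ± 0.13 (1.35-fold, unadjusted p = 0.00471). Neither difference was called (adjusted p = 0.954 and 0.572). Slc52a2, a riboflavin transporter at chromosome 15 D3, had a cluster at 6.65, 6.41, 6.43 and 6.60 in UCC2003 and 6.71, 6.61, 6.73 and 6.79 in GF, and gene-level columns of 6.71, 6.63, 6.62 and 6.74 against 7.02, 6.75, 6.95 and 6.80. The difference was -0.19 ± 0.07 in the cluster and -0.20 ± 0.09 in the gene-level table, with the same sign and no call in either (adjusted p = 0.612 and 1). Slc27a3, of the fatty acid transport proteins, was not called.

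**Figure D2:**
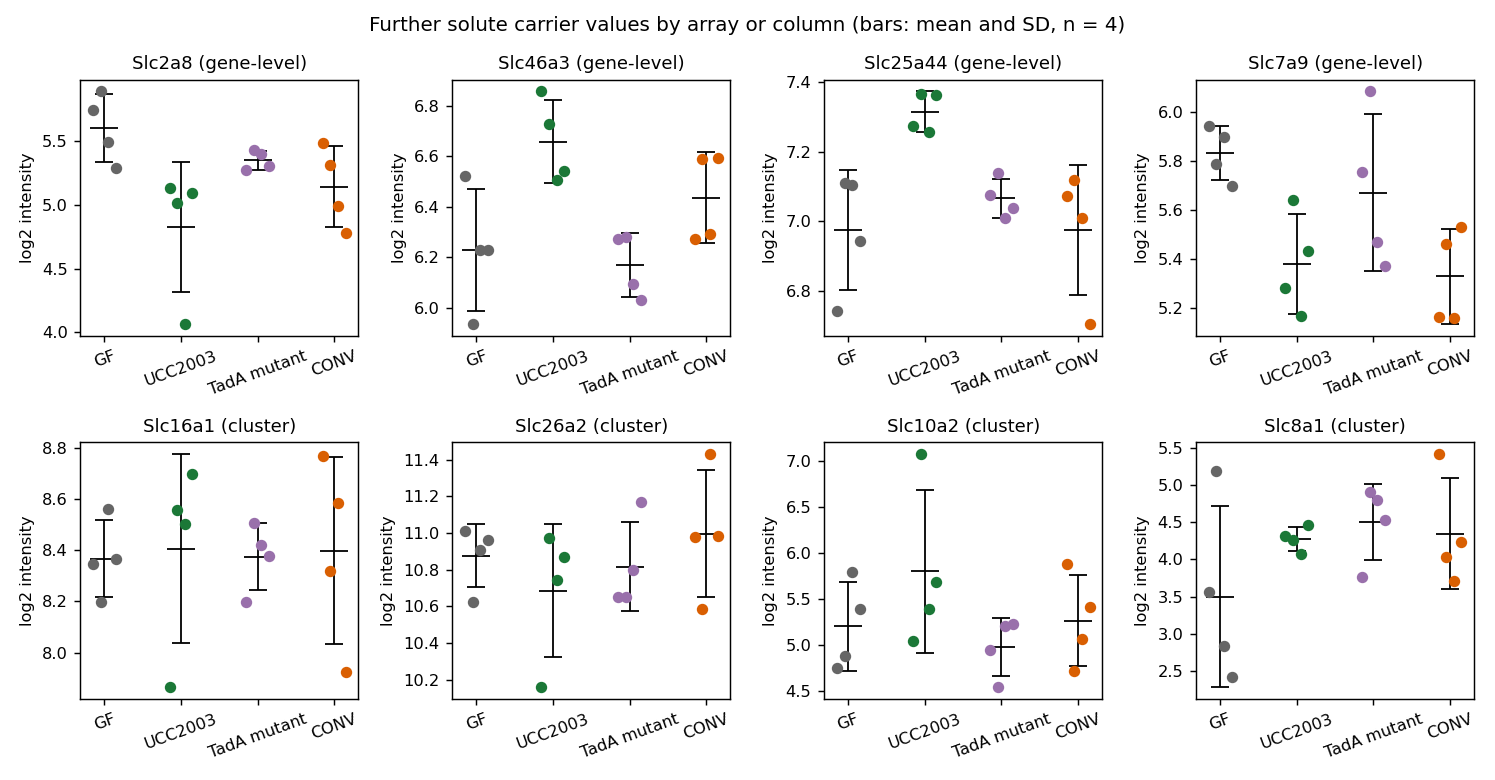
Log2 intensity (vertical axes, which start at different values) of 8 further solute carriers in each array or column of the 4 groups; bars give the mean and SD of 4. UCC2003 lies apart from GF for Slc2a8, Slc25a44 and Slc7a9, while the groups overlap for the clusters Slc16a1, Slc26a2, Slc10a2 and Slc8a1. Slc2a8, Slc25a44 and Slc7a9 are of the gene-level table, whose genes the authors kept for differing between GF, UCC2003 and TadA mutant. Their gap is therefore no independent evidence, and the clusters had no such selection.

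Inorganic anion carriers had 3 members. Slc26a2, a sulphate transporter abundant in colonic epithelium, read 10.98, 10.58, 11.43 and 10.99 in CONV, 11.01, 10.62, 10.91 and 10.96 in GF, 10.16, 10.97, 10.74 and 10.87 in UCC2003 and 10.65, 10.65, 10.80 and 11.17 in TadA mutant. The groups overlapped in every comparison, and the difference between CONV and GF was 0.12 ± 0.20 (adjusted p = 0.864). Slc4a2, a basolateral exchanger of chloride for bicarbonate, read 7.44, 7.43, 7.43 and 7.35 in GF, above all UCC2003 values (7.26, 7.11, 7.24 and 7.22). In TadA mutant it read 7.2, 7.15, 7.0 and 7.44. Its differences from GF of -0.20 ± 0.11 in UCC2003 and -0.21 ± 0.11 in TadA mutant were not called (adjusted p = 1 for both), nor was any difference of the anion exchanger gene Slc26a7.

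Among carriers of cations and metals, Slc41a3, of the magnesium transporter family, read 5.94, 6.36, 5.87 and 5.84 in CONV and 5.69, 5.81, 5.71 and 5.65 in GF. The CONV values lay just above the GF values, by 0.29 ± 0.10 log2 units (unadjusted p = 0.0128, adjusted p = 0.209), and CONV replicate 2 was the highest array. Slc8a1, the sodium-calcium exchanger of excitable and muscle cells, had a low mean signal of 4.16, with 17.8% of all clusters dimmer. It was the most variable of the 32 solute carrier clusters, with a pooled within-group SD of 0.76. It read 3.56, 5.18, 2.84 and 2.42 in GF, 4.32, 4.26, 4.07 and 4.46 in UCC2003, 3.77, 4.91, 4.80 and 4.53 in TadA mutant and 5.41, 4.03, 3.71 and 4.23 in CONV. With GF values that far apart, its differences from GF of 0.77 to 1.00 (SE 0.50) were not called (adjusted p = 0.679 for UCC2003, 0.813 for TadA mutant and 0.517 for CONV). Slc11a2, the proton-coupled importer of iron and other divalent metals, differed between CONV and GF by -0.50 ± 0.16 in the gene-level table (unadjusted p = 0.00645, adjusted p = 0.944). The zinc carriers Slc30a1, Slc30a4 and Slc39a1 were not called.

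Members of the mitochondrial carrier family were called in no comparison, in either table. Slc25a10, the dicarboxylate carrier that exchanges malate and succinate for phosphate, read 7.64, 8.07, 7.70 and 7.44 in CONV and 7.49, 7.44, 7.41 and 7.5 in UCC2003. CONV replicate 4 lay among the UCC2003 arrays. The difference was 0.25 ± 0.11 log2 units (adjusted p = 0.214), and without CONV replicate 4 it was 0.34 ± 0.10 (adjusted p = 0.0782). With the smooth muscle covariate its direction turned, to -0.064 ± 0.18 (adjusted p = 0.969). Slc25a44, a carrier of branched-chain amino acids, read 7.27, 7.37, 7.26 and 7.36 in the UCC2003 columns, above all values of GF (6.74, 7.11, 7.10 and 6.94) and of TadA mutant (7.07, 7.14, 7.01 and 7.04). UCC2003 differed from GF by 0.34 ± 0.11 (unadjusted p = 0.00539, adjusted p = 0.593) and from TadA mutant by 0.25 ± 0.11 (adjusted p = 1). The other 7 were Slc25a2, Slc25a15, Slc25a17, Slc25a24, Slc25a32, Slc25a41 and Slc25a47, of which Slc25a17 encodes a carrier of peroxisomes despite the family's name. Of these Slc25a24, a carrier of ATP-Mg and phosphate, had columns of 7.47, 7.47, 7.36 and 7.15 in CONV against 7.72, 7.82, 7.73 and 7.54 in GF, without overlap and with a difference of -0.34 ± 0.11 (unadjusted p = 0.00561, adjusted p = 0.874).

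All 7 members of the class of nucleosides and nucleotide sugars had clusters only. Slc35g1, at chromosome 19 C3, a relative of the nucleotide sugar transporters that is described here because of its values, read 8.53, 8.58, 8.64 and 8.04 in CONV replicates 1 to 4. It read 8.41, 8.07, 8.10 and 8.25 in GF, 8.03, 8.25, 8.20 and 8.24 in UCC2003 and 8.10, 8.09, 8.11 and 8.25 in TadA mutant. The first 3 CONV arrays lay above all other arrays and CONV replicate 4 lay among the lowest. With all arrays Slc35g1 was not called against GF (0.24 ± 0.12, adjusted p = 0.431), UCC2003 (0.27 ± 0.12, adjusted p = 0.247) or TadA mutant (0.31 ± 0.12, adjusted p = 0.252). Without CONV replicate 4 it was called against UCC2003 (0.40 ± 0.09, adjusted p = 0.0352) and TadA mutant (0.45 ± 0.09, adjusted p = 0.03), and not against GF (0.38 ± 0.09, adjusted p = 0.0608). The authors' deposited table gives folds of 1.33, 1.38 and 1.32 for CONV over UCC2003, TadA mutant and GF, with adjusted p-values of 0.0556, 0.0525 and 0.0778.

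Slc35a3, the transporter of UDP-N-acetylglucosamine into the Golgi, read 9.20, 8.93, 9.17 and 8.54 in CONV and 9.46, 9.21, 9.44 and 9.42 in TadA mutant, without overlap. The difference of -0.42 ± 0.15 was not called (adjusted p = 0.215), and it was -0.28 ± 0.14 without CONV replicate 4. Slc35e2, a further relative of the nucleotide sugar transporters, read 6.64, 6.78, 6.63 and 6.85 in UCC2003 and 6.66, 6.61, 6.57 and 6.44 in GF, a difference of 0.16 ± 0.08 (adjusted p = 0.633). Slc35g3 read 5.02, 5.79, 5.33 and 4.92 in UCC2003 and 5.56, 5.70, 5.56 and 5.79 in TadA mutant, a difference of -0.39 ± 0.18 (unadjusted p = 0.0439, adjusted p = 1). Both comparisons overlapped. Slc29a3, Slc35a4 and Slc35e1 were not called.

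On the clusters, the solute carriers were called about as rarely as all measured features. In CONV against GF 1 of 32 clusters was called, where 1.89% of all clusters were, and 5 of 32 had an unadjusted p under 0.05, where 13.2% of all did. In CONV against UCC2003 the call was again 1 of 32 (3.03% of all clusters), with 7 of 32 at an unadjusted p under 0.05 (19.4%). In CONV against TadA mutant it was 1 of 32 (1.4%), with 6 of 32 (15.1%). The 1 call was Slc13a2 each time. Without CONV replicate 4 the counts were 1 against GF, 2 against UCC2003 and 2 against TadA mutant, the added gene being Slc35g1. Of all 23332 clusters, 454, 733 and 358 were then called in these 3 comparisons. Without the 8 arrays with abundant pancreatic transcripts, which leaves 1 GF and 2 CONV arrays, the Slc13a2 calls against GF and UCC2003 were lost. The Slc13a2 difference from GF was then 1.87.

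No solute carrier cluster was called between the germ-free and monocolonised groups by limma. For UCC2003 against GF this was 0 of 32 (0.0214% of all clusters), with 2 of 32 at an unadjusted p under 0.05 (7.96%), namely Slc13a2 and Slc52a2. For TadA mutant against GF it was 0 of 32 (0% of all clusters), with 0 of 32 (6.01%). For UCC2003 against TadA mutant it was 0 of 32 (0.00857%), with 2 of 32 (3.58%), namely Slc13a2 and Slc35g3. Against GF, the SE of a difference ran from 0.07 for Slc52a2 to 0.50 for Slc8a1. Differences well beyond their SE also went uncalled, such as 0.34 ± 0.11 for Slc13a2 between UCC2003 and TadA mutant. A missing call therefore does not show that a gene was unchanged.

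In the gene-level table, 2 of 21 solute carriers were called in CONV against GF (3.46% of its 1793 genes), with 6 of 21 at an unadjusted p under 0.05 (28.1%). In UCC2003 against GF 0 of 21 were called (0.279%), with 10 of 21 at an unadjusted p under 0.05 (54.3%). In TadA mutant against GF 0 of 21 were called (0%), with 2 of 21 (41.3%), namely Slc17a8 and Slc1a1. In UCC2003 against TadA mutant 0 of 21 were called (0.223%), with 6 of 21 (32.5%). At an unadjusted p under 0.05, the solute carriers were near or below the share of the whole table in each of these comparisons.

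**Figure D3:**
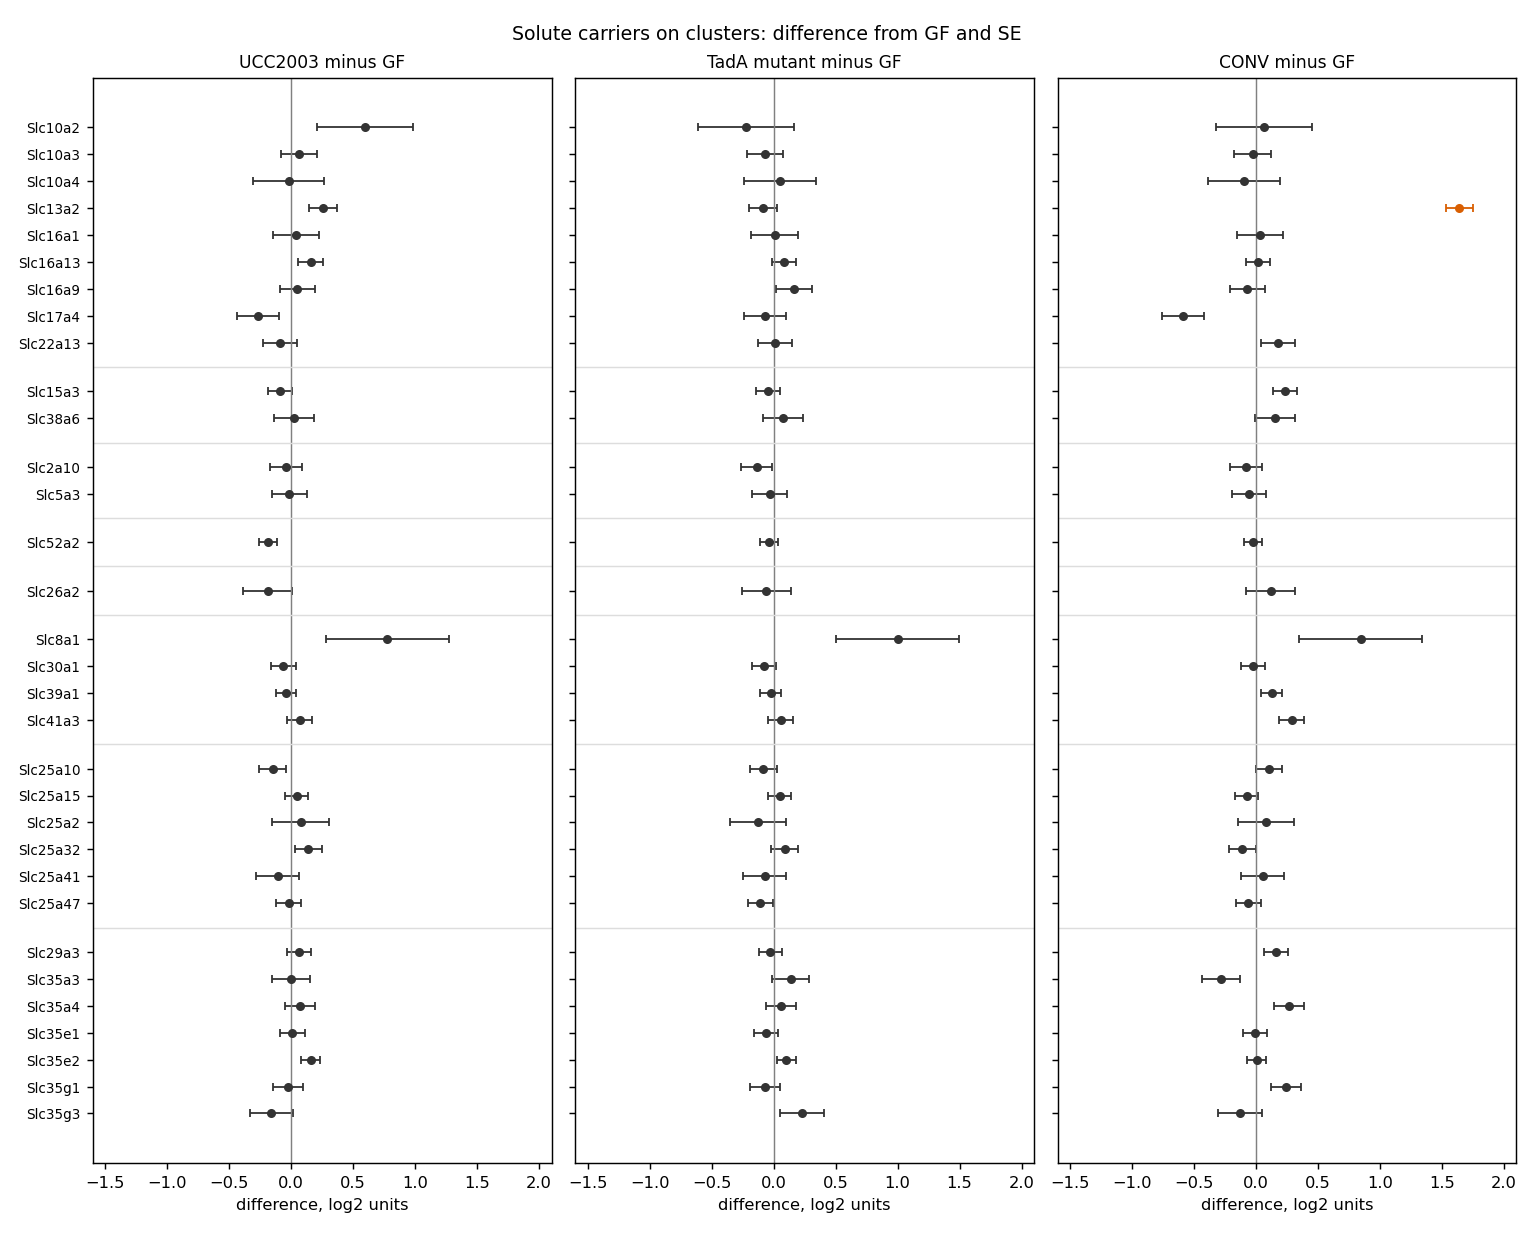
Difference from GF in log2 units (horizontal axes) with its SE, in UCC2003, TadA mutant and CONV. Shown are the 32 solute carriers with a cluster, grouped by the class of their family. The coloured point is the called one. Slc13a2 stands at 1.64 in CONV, while nearly all other points lie within 0.3 of 0, and Slc8a1 and Slc10a2 have the widest bars.

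The direction of the differences was divided. On the clusters, 18 of 32 solute carriers were higher in CONV than in GF, with a median of 0.022 log2 units against 0.007 for all clusters, and 17 of 32 were higher in UCC2003 than in GF, with a median of 0.006 against 0.042. In TadA mutant 14 of 32 were higher than in GF, with a median of -0.030 against 0.026. These counts moved with the scaling of the arrays. With quantile normalisation, UCC2003 exceeded GF for 9 of the 32, TadA mutant for 12 and CONV for 15, with medians of -0.066, -0.067 and -0.0071 against -0.014, -0.0080 and 0.0032 for all clusters. With median centring these counts were 14, 12 and 17. The median absolute difference from GF was 0.07 in UCC2003, 0.07 for TadA mutant and 0.10 for CONV, against 0.13, 0.12 and 0.14 for all clusters. Among the 21 solute carriers of the gene-level table, UCC2003 lay below GF for 14, TadA mutant for 15 and CONV for 12, where this held for 1051, 908 and 921 of all 1793 genes. Their medians were -0.190, -0.090 and -0.055 against -0.104, -0.006 and -0.0089 for all genes.

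**Figure D4:**
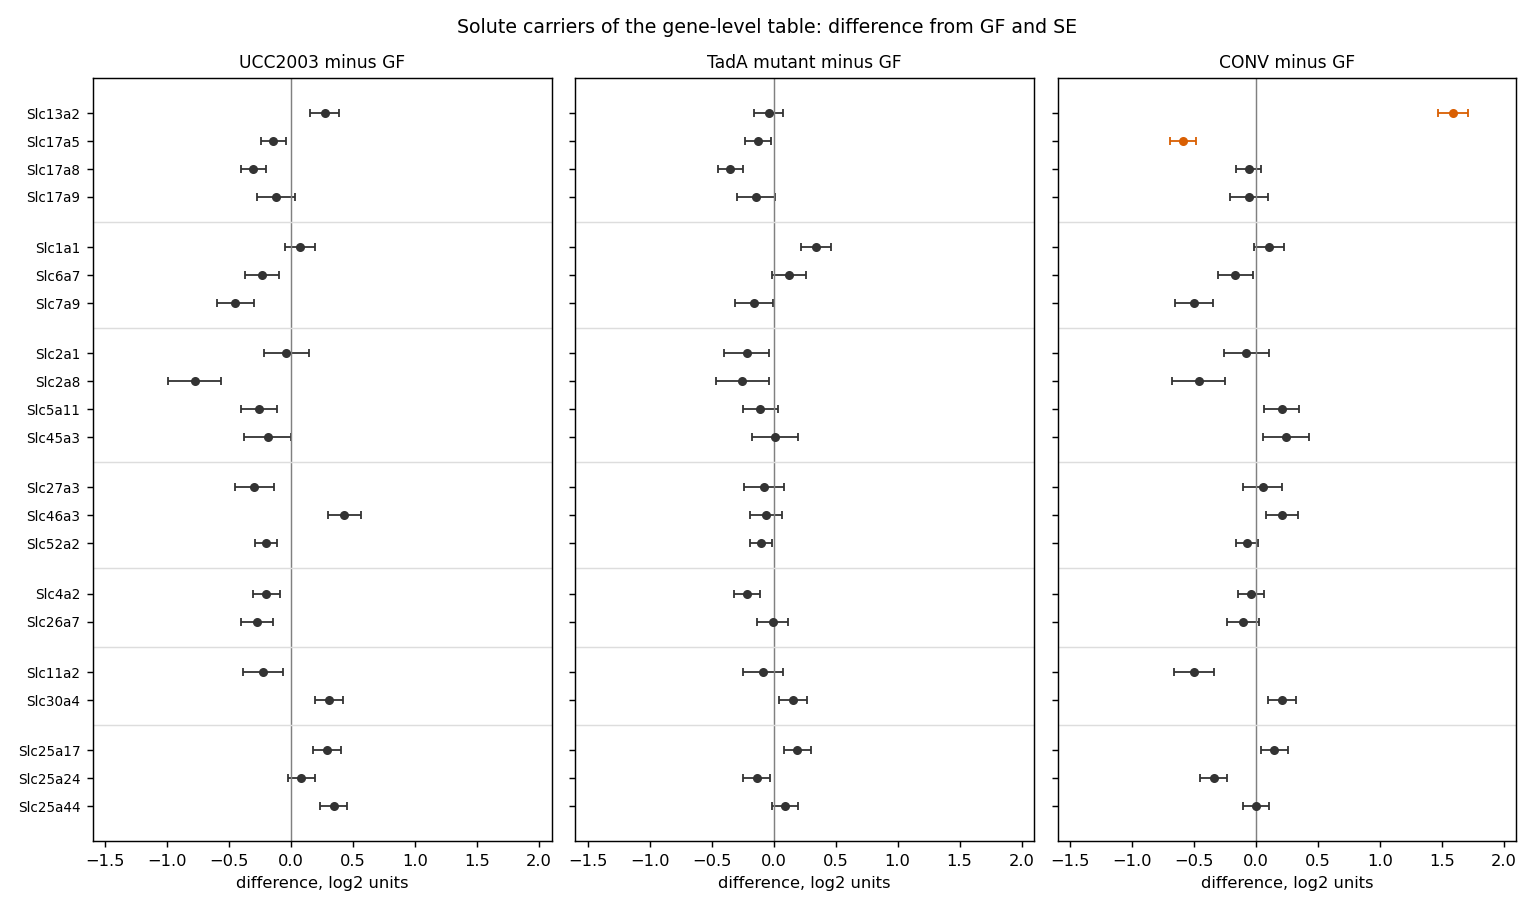
Difference from GF in log2 units (horizontal axes) with its SE, in UCC2003, TadA mutant and CONV. Shown are the 21 solute carriers of the gene-level table, grouped by the class of their family. Coloured points are the called ones. Slc13a2 at 1.59 and Slc17a5 at -0.59, both in CONV, are the 2 called, and Slc2a8 has the largest difference in UCC2003 at -0.78.

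**Figure D5:**
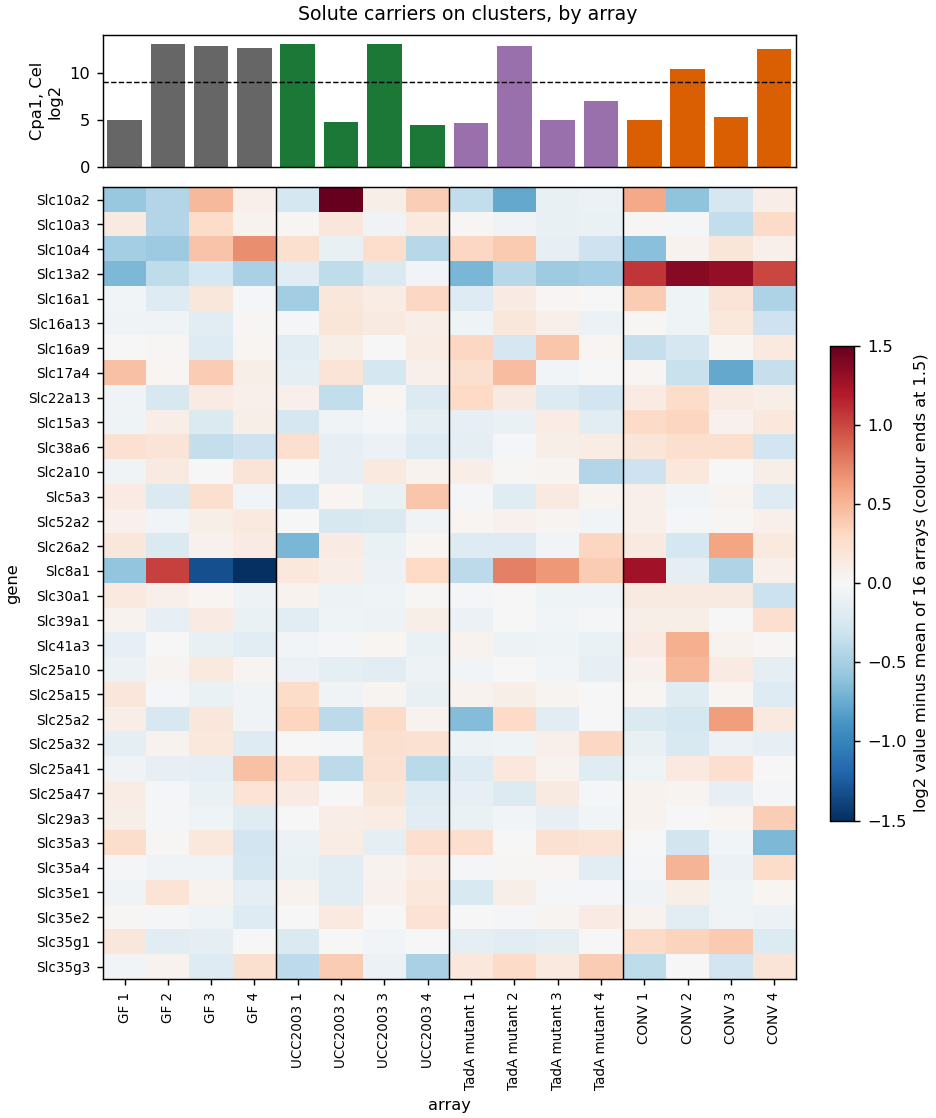
Log2 value minus the gene's mean over 16 arrays (colour, ending at 1.5) for the 32 solute carrier clusters in each array, with the mean level of Cpa1 and Cel in log2 units above (bars from 0, dashed line at 9). Slc13a2 is high in all 4 CONV arrays whether or not these pancreatic transcripts are abundant, and single arrays stand out for Slc10a2 (UCC2003 replicate 2) and Slc35g1 (CONV replicate 4).

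Other transport genes on named clusters were few. Of 2 aquaporins 1 was called, Aqp4, a basolateral water channel, which rose in CONV over GF by 2.34 ± 0.18 log2 units (adjusted p = 6.05e-06). Of 2 chloride channel genes 1 was called, Best2, a bicarbonate-conducting channel of colonic goblet cells, which fell by 0.92 ± 0.15 (adjusted p = 0.00586). Both were called in the same direction against UCC2003 and TadA mutant. None of 8 potassium channel genes, 2 proton pump subunits or 2 solute carriers named by another stem (Mfsd5 and Mfsd6l) was called in any of these 3 CONV comparisons, with median differences from GF of -0.01, -0.06 and 0.22.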

How the data were processed

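Colon RNA of 16 samples was hybridised to Affymetrix Mouse Exon ST arrays. Per the submitters' processing notes, the deposited log2 intensities were made by RMA (Affymetrix Expression Console 1.1; build mm9), and Partek is also named. The authors' deposited comparison table holds signed folds, p-values and adjusted p-values for 16135 features, and their deposited gene-level table holds log2 values of 1793 genes with an ANOVA p-value each. Every value column was used.

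Groups came from the treatment labels and replicate numbers from the titles. The design text states 5 CONV animals, and 4 CONV arrays are used here. Group means over all 16 arrays were modelled in limma 3.58.1 under R 4.3.3 (prior degrees of freedom 2.22 on clusters and 3.77 on the gene-level table), and pairs of groups were compared two-sided. A symbol with several clusters would have been read from its brightest cluster. Same-numbered arrays of different groups did not deviate together (24 correlations of deviations from group means, median -0.04, from -0.31 to 0.21), so the numbers were not taken as pairs. Tested on simulated data for CONV minus GF over 23332 clusters, the fit recovered 37 of 100 differences of log2 0.5 and 90 of 100 of log2 1.6, each with the correct direction, and called 7 clusters that had been left unchanged. The simulated noise was normal and independent between clusters. It held no shared shifts such as those of the pancreatic or smooth muscle transcripts, so these rates need not hold for the real arrays.

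The members and lists were chosen with earlier results of these data known. Members given array by array are those called in any comparison, the 3 with the smallest p-value in each of the 6 cluster and 4 gene-level comparisons, and 24 carriers of colon textbooks where measured. This named 22, and Slc11a2, Slc25a24, Slc35a3 and Slc35g1 were added after their values were seen. Alternatives changed the array scaling, the prior, the samples fitted, the filter on dim clusters, the adjustment, pancreatic and smooth muscle covariates, the replicate block and each array in turn.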

Additional observations from a re-analysis of the deposited data

Results flagged for a closer look

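Single arrays far from the other 3 of their group (by Dixon's test of the gap over the range) were seen in 5 of 100 groups of 4, about the 1 in 20 that chance gives. Slc35g1 read 8.25 in TadA mutant replicate 4, with the others at 8.09 to 8.11. In the gene-level table, Slc2a8 read 4.06 in UCC2003 column 3 (others 5.01 to 5.13), Slc1a1 6.61 in CONV column 4 (others 7.02 to 7.09), Slc4a2 7.35 in GF column 4 (others 7.43 to 7.44) and Slc17a5 6.53 in TadA mutant column 2 (others 6.34 to 6.37).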

How the results depend on the processing

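Of the values of single members under the alternatives, 1037 kept their direction and side of the threshold, 28 reversed, 12 lost a call and 8 gained one. Of the Slc13a2 rises in CONV, the call against GF was lost in 1 of 26 alternatives (without arrays rich in Cpa1 and Cel, 1.87, adjusted p = 0.137). The call against UCC2003 was lost in 2 (the same, 1.40, adjusted p = 0.0729; smooth muscle covariate, 1.05, adjusted p = 0.0759), and that against TadA mutant in 0. The counts of called members fell from 1 to 0 in these cases and were 1 to 2 against UCC2003 and TadA mutant when 1 array was left out, the 2 coming without CONV replicate 4. The Slc17a5 call was lost in 9 of 21 alternatives: with the compared groups only (adjusted p = 0.376), which leaves 1 call in CONV against GF, and without TadA mutant column 1, any GF column or CONV column 2, 3 or 4 (adjusted p = 0.0514 to 0.116), which leaves 1 in each case, against 2 without any other column. Adjusted over the gene-level table alone, 7 of its 21 members were called in UCC2003 against GF, where 686 of all 1793 genes were. In TadA mutant against GF 1 member was called (230 of all genes), and in UCC2003 against TadA mutant 1 (101 of all genes). In CONV against GF 5 members were called (256 of all genes).

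All reversals concerned differences that were not called. For Slc16a1 against GF, the value in CONV was -0.010 with quantile normalisation, -0.051 with the Cpa1 and Cel covariate, -0.047 with the smooth muscle covariate and -0.093 to 0.19 when 1 array was left out. In TadA mutant it was -0.020 with median centring, -0.062 with quantile normalisation, -0.10 with the Cpa1 and Cel covariate, -0.014 without arrays rich in Cpa1 and Cel and -0.049 to 0.073 leaving out 1 array. In UCC2003 it was -0.064 with quantile normalisation, -0.026 with the Cpa1 and Cel covariate and -0.059 to 0.22 leaving out 1 array. Slc10a2 in CONV was -0.076 with the Cpa1 and Cel covariate and -0.14 to 0.26 leaving out 1 array, and in TadA mutant 0.38 in place of -0.22 without arrays rich in Cpa1 and Cel. Slc26a2 in CONV ran from -0.027 to 0.25 leaving out 1 array, and gene-level Slc2a1 from -0.24 to 0.15 in CONV and from -0.13 to 0.018 in UCC2003. With the smooth muscle covariate, Slc35e2 in TadA mutant was -0.020, and Slc25a10 in CONV against UCC2003 was -0.064 in place of 0.25. The cause of these changes was not tested.

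With the replicate number as a block, no member's call changed and Slc13a2 rose by 1.64 in CONV over GF (adjusted p = 4.06e-05), while all called clusters went from 440 to 293 in CONV against GF and from 706 to 381 against UCC2003. Gene-level columns carry no replicate number, so no paired analysis was possible there. Counts over all clusters in CONV against GF, TadA mutant and UCC2003 were 440, 327 and 706. They were 112, 83 and 194 with the compared groups only, 267, 17 and 17 with the smooth muscle covariate, and 3, 29 and 7 without arrays rich in Cpa1 and Cel. Leaving out 1 array gave 241 to 454, 163 to 392 and 306 to 903. In UCC2003 against GF 5 clusters were called, and 0 to 6 under the alternatives. In the gene-level table, all called genes in CONV against GF went from 62 to 18 with the compared groups only, 40 with the ordinary fit, 35 to 58 leaving out 1 column and 256 adjusted over the table alone. In UCC2003 against GF they went from 5 to 1 with the ordinary fit and 686 adjusted over the table alone, and the latter gave 230 in place of 0 for TadA mutant against GF and 101 in place of 4 for UCC2003 against TadA mutant. The mean of all clusters of a symbol was not run, since each member had 1 cluster, and the filter on dim clusters gave no value for members below the median.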
